A study of Caenorhabditis elegans with 12 samples.

Results

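The left arm of chromosome V lies outside the gene-dense centre of the chromosome. Here it is represented by 1717 promoter windows of protein-coding transcripts out of 51519 windows in the count table. Within the arm they were chosen by position and transcript type, but the arm itself was chosen with earlier results of these data known. A window was taken when it was 1700 bp wide, belonged to a coding RefSeq transcript and started between 250000 and 5899999 on V in the ce10 assembly. Of the 1719 windows that met these limits, 2 that overlap the intervals 1646800 to 1648530 and 5081024 to 5082723 were left out. Counts were found at 1709 of the 1717 windows, and the other 8, among them 3 windows of *irld-32* and 2 of *F56A4.3*, held no counts in any library.

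Accessibility was measured by ATAC-seq in body-wall muscle cells sorted from L3 larvae of *Caenorhabditis elegans*, with 3 libraries for each of 4 genotypes. These were the double mutant *met-2 set-25*, the single mutants *met-2* (n4256) and *set-25* (n5021), and the wild type (WT). The labels give the WT as N2 (Bristol), whereas the methods describe sorting of cells that express RFP from the *myo-3* promoter of the *gwIs4* array, and the labels of the growth protocol count fewer independent replicates than the 3 libraries per genotype, which the methods describe as independent replicates. The window of *myo-3* itself averaged 459121 normalized counts in the *met-2 set-25* libraries, 379643 in those of *met-2*, 352194 in those of *set-25* and 358878 in those of WT, whereas the next highest marker of muscle in WT, *unc-89*, averaged 2754 there. All genotypes, WT included, thus had a very high count at this promoter. As the growth protocol counts fewer independent replicates than libraries, the p-values measure the spread between these libraries, part of which may be technical.

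In ATAC-seq, the Tn5 transposase cuts and tags DNA that is not covered by nucleosomes, so that reads accumulate at open promoters and enhancers. MET-2, the worm homolog of SETDB1, and SET-25 are the histone methyltransferases that place methyl groups on lysine 9 of histone H3 (H3K9me), a mark of heterochromatin. In worms this mark is concentrated on the chromosome arms, which lie close to the nuclear envelope, and the arms of V carry large clusters of chemosensory receptor and nuclear hormone receptor genes that have little known use in muscle. The comparisons ask at which promoters of this arm Tn5 had more or less access once MET-2, SET-25 or both were lost.

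The 1717 windows start at 1648 distinct positions, and 1128 of them overlap another window of the arm. Merging overlapping windows gave 1004 loci, and 1668 windows were matched to 1240 named genes of the WBcel235 annotation, all protein-coding. Reads were counted without regard to strand, so windows of neighbouring genes on opposite strands share reads. Column totals ranged from 50148450 to 105547683 counts, so a floor of 3 counts, which covers counting error only, equals 0.0284 to 0.0598 CPM, the count scaled to a common library total. Values below are normalized counts, that is counts scaled to the mean of the 12 column totals. All 17 marker genes of body-wall muscle had a window above the upper quartile of all windows in WT, but so did 4 of the 5 neuronal, 4 of the 4 pharyngeal, 3 of the 5 hypodermal and seam and 2 of the 5 germline genes found, while intestinal markers had none of 5. The median over the muscle markers, each at its highest window, was 2638 normalized counts in *met-2 set-25*, against 2112 in WT, and all 17 had a higher mean in the double mutant. The medians of neuronal markers were 1762 in *met-2 set-25*, against 1948 in WT, those of hypodermal and seam markers 1657 against 1704, those of germline markers 1524 against 1687, those of intestinal markers 1440 against 1499 and those of pharyngeal markers 1804 against 1801 in the same order. Outside muscle, 1 of 5 neuronal, 2 of 5 hypodermal, 1 of 5 germline, 0 of 5 intestinal and 3 of 4 pharyngeal markers had the higher mean in the double mutant. The part of these shifts in the changes on the arm was not tested. The libraries differed in how far signal stood above background. The signal index, the percentage of autosomal counts that fell in the 5% of autosomal windows with the highest level in *set-25*, was 10.1, 11.3 and 10.4% in the *met-2 set-25* libraries, 9.78, 10 and 8.87% in those of *met-2*, 9.12, 9.15 and 9.12% in those of *set-25* and 9.31, 9.98 and 9.08% in those of WT. All *met-2 set-25* libraries thus lay above all WT libraries, so that the index and the double mutation cannot be told apart in this design.

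Most promoters of the arm had a similar, moderate level. The median over the 1709 windows was 1442 normalized counts in the *met-2 set-25* libraries, 1488 in those of *met-2*, 1536 in those of *set-25* and 1480 in those of WT. The quartiles in WT were 1334 and 1635. As the libraries come from bulk cells, a lower count from fewer open cells and one from less access per cell cannot be told apart. The highest WT level was at *str-221*, which encodes a chemoreceptor of the str class (V:1638808-1640507, plus strand). There were 3748, 3429 and 3604 normalized counts in the *met-2 set-25* libraries, 4030, 3864 and 4401 in those of *met-2*, 4299, 4258 and 4435 in those of *set-25* and 4279, 3695 and 4059 in those of WT. The double mutant libraries overlapped those of WT, and the log2 fold change over WT (log2FC) of -0.16 (SE 0.085) did not pass the test (false discovery rate, FDR = 0.228, from the Benjamini-Hochberg adjustment of edgeR's quasi-likelihood p). The next levels in WT were 2941 at the shared window of *F53E2.2* and *unc-60*, 2940 at the F-box gene *fbxb-72* and 2439 at *srh-2*. The spreads of these levels overlapped between *F53E2.2* (SD 318) and *fbxb-72* (SD 591). At the other end, *F40C5.1* had no counts in any WT library, *T24A6.16* had at most 3 counts in any library before scaling, and *str-35* averaged 12.6 ± 2.29 normalized counts in *met-2 set-25*, against 18.1 ± 3.21 in WT (SD, n = 3 each). No fold is given for *F40C5.1* and *T24A6.16*, which lie at or near the floor.

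In *met-2 set-25*, which lacks both methyltransferases, counts were higher than in WT at a small set of promoters on the arm. Of the 1709 windows, 51 had higher and 2 had lower counts in *met-2 set-25* than in WT at an FDR below 0.01 (edgeR, adjusted over all 51281 windows tested). The 51 windows are 2.98% of those tested on the arm, compared with 3.44% of all windows tested, and the 2 lower windows are 0.117%, compared with 0.731% of all windows tested. Among coding promoter windows of all autosomes, which include the arm, 2.81% were higher and 0.863% lower. Some of the 51 repeat each other, leaving 43 distinct sets of counts, and they merged into 24 loci and named 30 genes. The increases were small, with a median log2FC of 0.33 and a range of 0.23 to 0.51. At 48 of the 51 windows all *met-2 set-25* libraries lay above all WT libraries. Over the whole arm this was so at 151 windows (8.84%), compared with 10.5% of all windows tested, and the reverse order was found at 164 windows (9.60%), compared with 17%. With counts scaled to column totals, the median log2FC was -0.03 on the arm and -0.04 over all windows, and 625 of the 1709 windows had a value above 0. Since any scaling centres these values, they do not show whether the typical window changed. The median on the arm was 0.01 with TMM factors, which scale libraries on the bulk of the windows rather than on their totals, and 0.01 with DESeq2. An unadjusted p below 0.05 was found for 140 higher and 104 lower windows, compared with 10.7% and 15.4% of all windows tested.

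The number of calls changed with the libraries entered and with the signal index. With the signal index as a covariate 0 of the 51 windows were called and their median log2FC was 0.12 instead of 0.33. In that edgeR fit 32 windows of the whole table were higher and 7 lower at an FDR below 0.01. On the arm, 69 (4.04%) were higher and 18 (1.05%) lower at an unadjusted p below 0.05, compared with 3.59% of all windows tested in either direction. Without WT replicate 3 the number of higher windows was 7, without *met-2 set-25* replicate 2 it was 8 and without WT replicate 1 it was 25. DESeq2, another count test with its own scaling, called 69 windows higher and 1 lower, compared with 2764 and 314 of all 51281 windows tested. It called 41 of the 51 windows and gave 3 of the others no adjusted p, and its lower window, of *R02F11.2* (log2FC -0.17), was not among the 2 that edgeR called. Of the 8 loci described next, *K11D12.14*, the unnamed transcript near *srh-2* and *F54E2.1* were called with any single library left out.

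The window with the smallest FDR belonged to *K11D12.14*, a gene with a sequence name only (V:5048121-5049820, plus strand). It had 1845, 2339 and 2161 normalized counts in the *met-2 set-25* libraries, 1775, 1895 and 1346 in those of *met-2*, 1461, 1375 and 1406 in those of *set-25* and 1480, 1713 and 1247 in those of WT. Each double mutant library lay above every *set-25* and WT library, but the lowest of them was below the highest *met-2* library. The log2FC over WT was 0.51 (SE 0.0787, edgeR FDR = 1.24e-05), and with the signal index as a covariate no call was left here or at any other named window.

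The largest cluster of gained windows lay around *srh-2*, a chemoreceptor gene of the srh class, and *icl-1*, which encodes the bifunctional enzyme of the glyoxylate cycle. All 12 windows of the adjoining loci from 726813 to 732260 were higher, 9 of them assigned to *srh-2*, 2 to *icl-1* on the opposite strand and 1 to a transcript without a gene name. They share reads and are not 12 independent measurements. At the unnamed transcript (V:729904-731603, plus strand) there were 2161, 2753 and 2277 normalized counts in the *met-2 set-25* libraries, 2036, 2058 and 1732 in those of *met-2*, 1728, 1649 and 1780 in those of *set-25* and 1794, 1910 and 1551 in those of WT, a log2FC over WT of 0.45 (SE 0.0736, edgeR FDR = 3.73e-05). The double mutant libraries lay above all 9 others. At the upstream *srh-2* window (V:726813-728512), there were 2994, 3596 and 3122 normalized counts in the *met-2 set-25* libraries, 2561, 2711 and 2209 in those of *met-2*, 2366, 2223 and 2548 in those of *set-25* and 2482, 2650 and 2185 in those of WT, again without overlap between the double mutant and the other genotypes (log2FC over WT 0.41, SE 0.0868, edgeR FDR = 0.00116). This call was lost without WT replicate 3 or *met-2 set-25* replicate 2 (0.33 in both fits). The neighbouring *fbxb-72* window, although among the highest on the arm, had 3401, 4018 and 3489 normalized counts in *met-2 set-25*, against 2901, 3549 and 2368 in WT and did not pass (log2FC 0.31, SE 0.0986, edgeR FDR = 0.0348), although it was called without WT replicate 2 (0.47) or *met-2* replicate 3 (0.31). Without WT replicate 3 its log2FC was 0.17.

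Metabolic and signalling genes were among the other gained loci. At *pgph-2*, a phosphoglycolate phosphatase homolog (V:5763121-5764820, plus strand), *met-2 set-25* libraries had 1996, 2007 and 1980 normalized counts, *met-2* libraries 1692, 1718 and 1418, *set-25* libraries 1603, 1443 and 1550 and WT libraries 1575, 1702 and 1320. The double mutant libraries were close together and above all others (log2FC over WT 0.38, SE 0.065, edgeR FDR = 9.37e-05), and the call was lost only without WT replicate 3 (0.28, FDR = 0.0107). The window of its neighbour *pgph-3* on the opposite strand overlaps it and was also higher (log2FC 0.32). At *mlk-1*, a mitogen-activated protein kinase kinase kinase of the KGB-1 stress pathway (V:5064589-5066288, minus strand), *met-2 set-25* libraries had 2799, 3318 and 3069 normalized counts, *met-2* libraries 2517, 2812 and 2191, *set-25* libraries 2285, 2200 and 2214 and WT libraries 2026, 2619 and 2095 (log2FC over WT 0.44, SE 0.0878, edgeR FDR = 0.00053). Here the double mutant overlapped *met-2* but neither *set-25* nor WT, and the call was lost without WT replicate 1 (0.38), WT replicate 3 (0.39) or *met-2 set-25* replicate 2 (0.38).

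**Figure D1:**
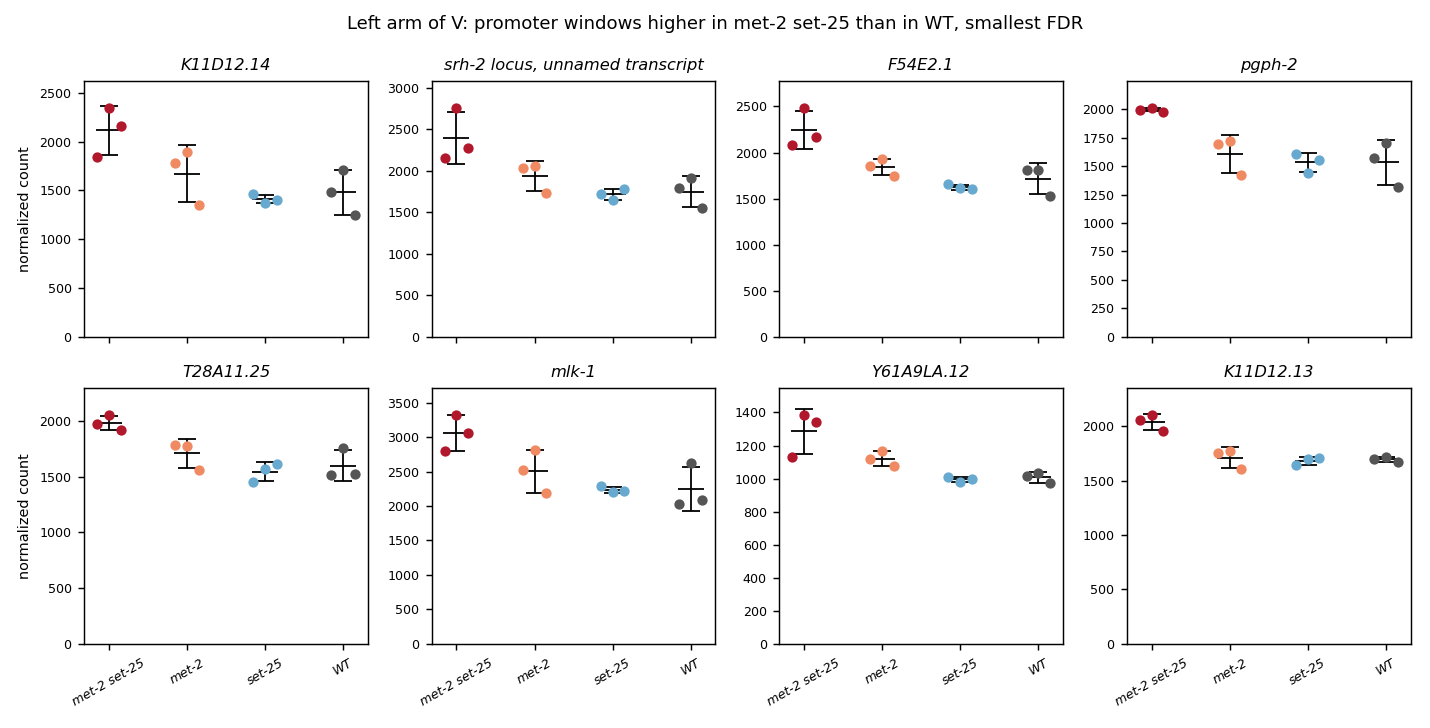
Normalized counts (vertical axes, from 0) in the 12 libraries at the 8 windows of separate loci with the smallest FDR among those higher in *met-2 set-25* than in WT. Points are libraries, bars the mean and SD of 3 libraries, and genotypes run from *met-2 set-25* at the left to WT at the right. All *met-2 set-25* points lie above all WT points in each panel, whereas *met-2* points overlap those of WT in each panel but that of *Y61A9LA.12*.

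*F54E2.1*, *T28A11.25*, *Y61A9LA.12* and *K11D12.13*, known by sequence names, completed the 8 loci with the smallest FDR. *F54E2.1* (V:2808896-2810595, plus strand) had 2087, 2479 and 2169 normalized counts in the *met-2 set-25* libraries, 1851, 1926 and 1748 in those of *met-2*, 1655, 1616 and 1602 in those of *set-25* and 1812, 1815 and 1525 in those of WT (log2FC over WT 0.39, SE 0.0642, edgeR FDR = 4.94e-05). *K11D12.13* (V:5031883-5033582, plus strand) had 2060, 2101 and 1960 normalized counts in the *met-2 set-25* libraries, 1756, 1777 and 1604 in those of *met-2*, 1643, 1698 and 1710 in those of *set-25* and 1700, 1718 and 1671 in those of WT (log2FC over WT 0.27, SE 0.0565, edgeR FDR = 0.00113). At both windows the double mutant libraries lay above the other 9, which differed little among themselves at *K11D12.13*. *Y61A9LA.12* had a lower level, with 1132, 1383 and 1341 normalized counts in *met-2 set-25*, against 1015, 1034 and 972 in WT (log2FC 0.35, SE 0.073, edgeR FDR = 0.000901). Without WT replicate 3 or *met-2 set-25* replicate 2 the calls at *K11D12.13* (0.26 and 0.24) and *Y61A9LA.12* (0.33 and 0.30) were lost.

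*T28A11.25* (V:3278877-3280576, plus strand) had 1973, 2051 and 1920 normalized counts in *met-2 set-25*, against 1517, 1760 and 1522 in WT (log2FC 0.31, SE 0.0603, edgeR FDR = 0.000528). The call was lost without WT replicate 1 (0.27), WT replicate 3 (0.27) or *met-2 set-25* replicate 2 (0.28). Its locus also holds the gained windows of *T28A11.2* and of the F-box gene *fbxa-64*. The remaining gained loci held, among others, the Ras exchange factor gene *sos-1* (2074 normalized counts in *met-2 set-25*, against 1715 in WT, log2FC 0.27), the kinesin light chain gene *klc-2* (2154 in *met-2 set-25*, against 1829 in WT, log2FC 0.24), the homeobox gene *unc-62* of the Meis class and *unc-60*, which encodes the actin-severing protein cofilin. The loci were spread along the arm. All 24 were scattered over 11 of the 12 stretches of 0.5 Mb, with 1 to 4 loci in each of the 11, and the first stretch of V held none. Of the 24 loci, 10 (41.7%) held windows of both strands, compared with 180 of all 1000 loci with a tested window (18.0%). A locus with more windows has more chances to hold both strands and to hold a call. The loci were not matched for their number of windows, and the difference was not tested.

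The 2 lower windows repeat the same counts and belong to *oac-55*, a member of a family of acyltransferase-like genes (V:3759625-3761324, plus strand). There were 1091, 993 and 1016 normalized counts in the *met-2 set-25* libraries, 1000, 1203 and 1183 in those of *met-2*, 1060, 1053 and 1109 in those of *set-25* and 1384, 1217 and 1203 in those of WT. All double mutant and all *set-25* libraries lay below all WT libraries, but only the double mutant passed the test (log2FC over WT -0.29, SE 0.0741, edgeR FDR = 0.00647 in *met-2 set-25*, and -0.24, SE 0.0748, edgeR FDR = 0.587 in *set-25*). DESeq2 gave this window no adjusted p. The call was lost with TMM factors (-0.26), with the signal index as a covariate (-0.21) and without WT replicate 1 (-0.23), WT replicate 3 (-0.33), *met-2 set-25* replicate 2 (-0.26) or *met-2 set-25* replicate 3 (-0.28).

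Most gained windows had high levels in the single mutants. To avoid using the compared libraries, windows were ranked by their mean level in *met-2* and *set-25*, which enter neither side of the comparison of *met-2 set-25* with WT. Of 5 classes of equal size, the one with the highest level, from 1695 to 4214 normalized counts, held 37 of the 51 gained windows (10.8% of 342), whereas the 3 lowest classes, all below 1560, held 3, 1 and 1. Over all windows tested, the same range of levels held 1420 gained windows of 12200 (11.6%). The median log2FC was 0.03 in the highest class and between -0.04 and -0.02 in the other 4. The signal index was also higher in the double mutant, and its part in this pattern was not tested.

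**Figure D2:**
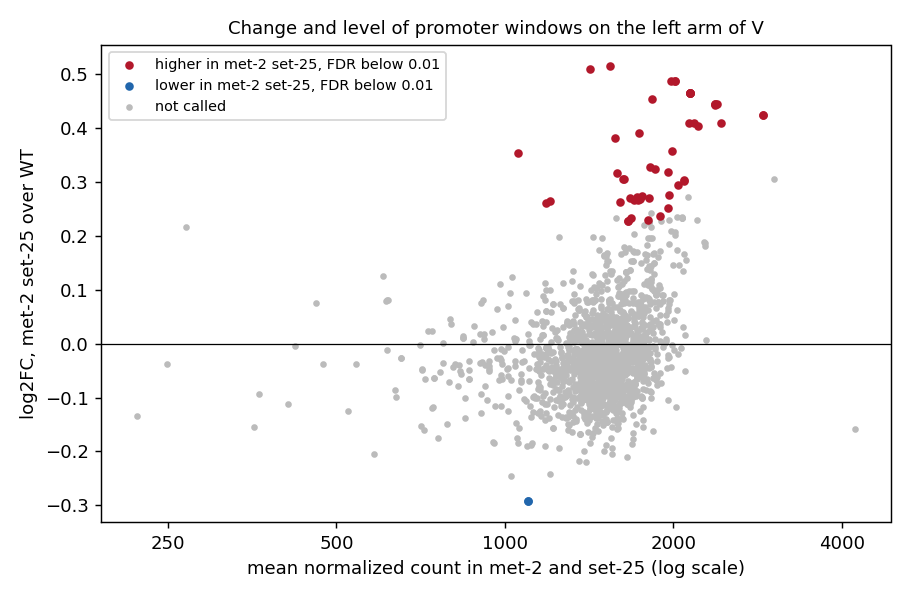
log2FC of *met-2 set-25* over WT (vertical axis) against the mean normalized count in *met-2* and *set-25* (horizontal axis, log scale) for 1706 windows of the arm with a level above 100. Each point is a window, red where counts were higher and blue where they were lower in *met-2 set-25* at an FDR below 0.01. Red points lie mostly at levels above 1695 normalized counts, and the blue point stands for the 2 windows of *oac-55*.

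The gained windows of the receptor families that fill the arm came from few genes. Chemoreceptor genes, G protein-coupled receptors of sensory neurons, had 379 windows from 317 genes. In *met-2 set-25* over WT 10 of them (2.64%) were higher, compared with 2.98% of the arm and 3.44% of all windows tested. A lower count was called at 0 of them, compared with 0.117% of the arm and 0.731% of all windows tested. Of the 10 higher windows, 9 belonged to *srh-2*. The other was the window of *srbc-5*, with 2221 normalized counts in *met-2 set-25*, against 1833 in WT (log2FC 0.28). The 10 windows hold 5 distinct sets of counts of the 357 in the family and come from 2 of its 317 genes, compared with 43 of 1639 distinct sets and 30 of 1240 genes on the arm. These differences were not tested. Its median level was 1404 normalized counts in the *met-2 set-25* libraries, 1452 in those of *met-2*, 1519 in those of *set-25* and 1448 in those of WT. The median log2FC of *met-2 set-25* over WT was -0.05 for chemoreceptors and -0.04 for all windows tested, with TMM factors it was -0.01 for both, and with the signal index as a covariate it was 0.02 for chemoreceptors.

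Nuclear hormone receptors, ligand-regulated transcription factors, had 104 windows from 74 genes, with 3 higher (2.88%) and 0 lower. Over all windows tested 3.44% were higher and 0.731% lower, so the family lay near these shares. The gained windows belonged to *nhr-86* and *nhr-256*. At *nhr-86* (V:2066644-2068343, minus strand) there were 2340, 2839 and 2653 normalized counts in the *met-2 set-25* libraries, 2256, 2334 and 1917 in those of *met-2*, 1955, 2039 and 2033 in those of *set-25* and 2271, 2187 and 1896 in those of WT (log2FC over WT 0.30, SE 0.0787, edgeR FDR = 0.00745). The call rested on every library but those of *met-2*, *met-2 set-25* replicate 1 and WT replicate 2, since leaving out any other gave an FDR of at least 0.0114. The double mutant overlapped none of the other genotypes there, and its locus also holds a gained window of *lbp-9*, a gene of the intracellular lipid-binding proteins. The *nhr* window with the most negative value was that of *nhr-55*, with 1307, 1355 and 1526 normalized counts in *met-2 set-25*, against 1528, 1584 and 1669 in WT (log2FC -0.19, SE 0.0614, edgeR FDR = 0.0317). It was called lower without *met-2 set-25* replicate 3 (-0.26).

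F-box genes, which encode adaptors of ubiquitin ligases, had 8 windows from 7 genes, of which those of *fbxa-64* and *fbxa-65* were higher (25% of 8, compared with 3.44% of all windows tested), a share that rests on 2 windows. The means at *fbxa-65* were 1817 normalized counts in the *met-2 set-25* libraries, 1713 in those of *met-2*, 1768 in those of *set-25* and 1512 in those of WT. No window passed in either direction among 32 windows of cytochromes P450, 20 of UDP-glucuronosyltransferases, 18 of *irld* genes, 9 of C-type lectins, 6 of glutathione S-transferases, 3 of *pals* genes and 2 of collagens, and the MATH and BTB list had no window on the arm. Over the families of at least 10 genes without a call, the named windows with the highest and the lowest value spanned from 0.10 at *cyp-33C9*, a cytochrome P450 gene, to -0.20 at *irld-44*. Genes with only a sequence name had 592 windows, with 14 higher (2.36%, compared with 3.44% of all windows tested) and 0 lower (compared with 0.731%).

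In the single mutants no window of the arm passed the test. In *met-2* against WT edgeR called 0 windows higher and 0 lower (0.0702% and 0.0312% of all windows tested). DESeq2 called 1 and 0, compared with 42 and 24 of all 51281 windows tested. At an unadjusted p below 0.05, 43 were higher and 28 lower in *met-2*, compared with 2.32% and 2.94% of all windows tested. All *met-2* libraries lay above all WT libraries at 83 windows and below them at 51 (4.22% and 5.49% of all windows tested). In *set-25* against WT both tools called 0 windows in either direction (0.0117% and 0.0156% of all windows tested with edgeR), while 172 (10.1% of 1709) had higher and 21 (1.23%) lower counts at an unadjusted p below 0.05, compared with 4.45% and 3.06% of all windows tested. All *set-25* libraries lay above all WT libraries at 241 windows (14.1%) and below them at 31 (1.81%), compared with 7.59% and 5.35% of all windows tested. The log2FC of *set-25* over WT was above 0 at 1216 of 1709 windows (71.2%), compared with 53.3% of all windows tested, and its median was 0.04 on the arm and 0.01 over all windows. The right arm of V had similar values, with 67.5% of windows above 0 and a median of 0.04. There 8.32% of windows were higher at an unadjusted p below 0.05, and at 11.6% all *set-25* libraries lay above all WT libraries. The 51 windows gained in the double mutant had a median log2FC over WT of 0.09 in *met-2* and -0.04 in *set-25*, values that share the WT libraries by which the windows were called.

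Chemoreceptors, nuclear hormone receptors, cytochromes P450 and *irld* genes had medians of 0.05, 0.05, 0.05 and 0.10 in *set-25* over WT, and these medians were positive with each scaling tried. The median of UDP-glucuronosyltransferases was 0.01 and became -0.01 with the signal index as a covariate. The median log2 ratio of chemoreceptor windows to the WT mean was 0.05, 0.07 and 0.04 in the *set-25* libraries and 0.03, -0.03 and 0.00 in the WT libraries, so the lowest *set-25* library lay above the highest WT library by a small margin.

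**Figure D3:**
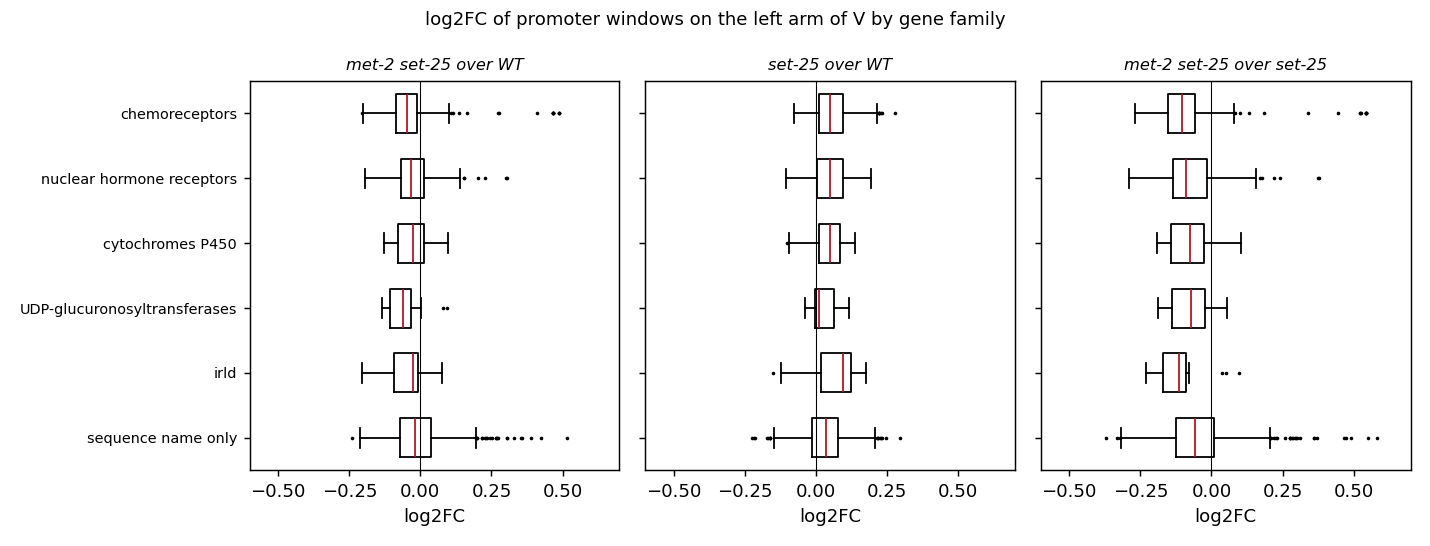
log2FC (horizontal axes) of windows on the arm by gene family (rows) in 3 comparisons. Boxes span the quartiles, red lines are medians, whiskers reach 1.5 times the box length and dots are windows beyond them. The chemoreceptor median lies at 0.05 for *set-25* over WT and at -0.10 for *met-2 set-25* over *set-25*, and these become 0.04 and -0.03 with the signal index as a covariate.

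Over the whole arm, the median log2 ratio to the WT mean, computed with a pseudocount of 8, was -0.003, -0.054 and -0.008 in the *met-2 set-25* libraries, 0.004, 0.002 and 0.024 in those of *met-2*, 0.037, 0.042 and 0.032 in those of *set-25* and 0.012, -0.014 and 0.003 in those of WT. All *set-25* libraries were above all WT libraries on the arm, and also on the right arm of V, there by 0.0319 against 0.0312 for the nearest pair. The right arm of V showed values of 0.032, 0.042 and 0.032 in *set-25* against -0.014, -0.018 and 0.031 in WT, and the centre of V 0.009, -0.013 and 0.003 in *set-25* against -0.002, -0.003 and 0.006 in WT. Calls in *met-2 set-25* against WT numbered 51 of 1709 windows on the left arm, 88 of 2025 in the centre (4.35%) and 31 of 1995 on the right arm (1.55%), where the median WT level was 1480, 1581 and 1472 normalized counts in the same order. The centre and the right arm follow the borders between arms and centre that the paper gives for V. The left arm here ends with its rule at 5899999, short of the paper's border. Windows between these 2 positions belong to none of the parts compared, and the right arm leaves out windows near the chromosome end. These differences between chromosome parts were not tested.

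**Figure D4:**
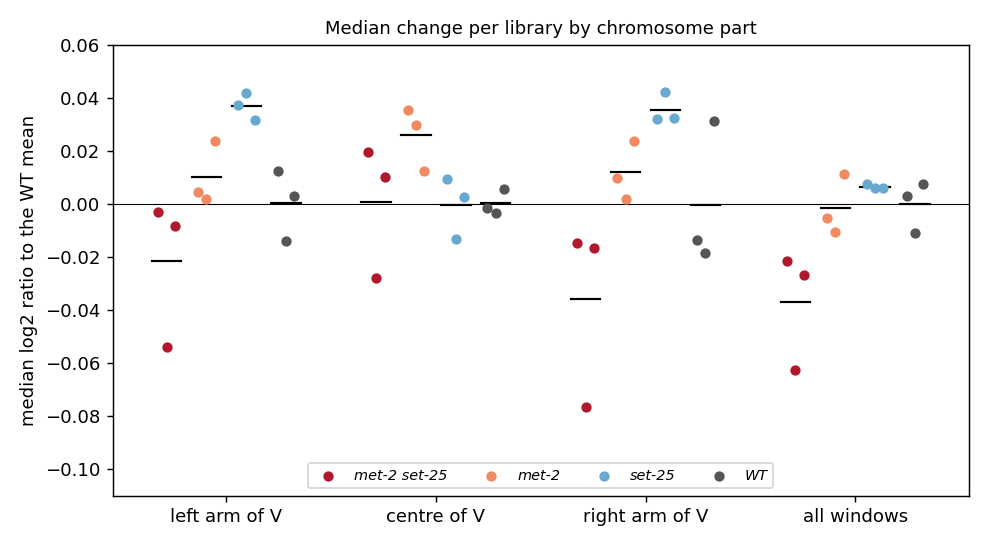
Median log2 ratio of each library to the WT mean (vertical axis) for the windows of the left arm of V, the centre of V, the right arm of V and all windows tested. Each point is a library, lines are means of 3 libraries, and genotypes run from *met-2 set-25* to WT within each group. On the left arm the *set-25* libraries lie at 0.032 to 0.042, above all WT libraries, as they narrowly do on the right arm. The lowest library in all 4 groups is *met-2 set-25* replicate 2.

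Loss of MET-2 in animals without SET-25 gave the largest number of calls. Counts were higher in *met-2 set-25* than in *set-25* at 81 windows (4.74%), compared with 7.64% of all windows tested, and lower at 60 (3.51%), compared with 3.77%. Among coding promoter windows of all autosomes 6.77% were higher and 3.31% lower. The 81 higher windows of the arm merged into 37 loci and the 60 lower into 44. The median log2FC was 0.32 at the higher and -0.24 at the lower windows, and -0.07 over the arm (-0.03 with TMM factors). All double mutant libraries lay above all *set-25* libraries at 170 windows and below them at 537, compared with 15% and 27.6% of all windows tested, and at an unadjusted p below 0.05 there were 150 higher and 463 lower windows, compared with 13.9% and 25.4%. The split between the directions depended on the scaling, with 101 higher and 24 lower windows with TMM factors, 118 and 37 with DESeq2 and 93 and 35 with autosomal totals. For TMM factors and autosomal totals no share over all windows is given here, so these counts are no result about the arm. The median log2FC over all windows tested also moved, from -0.06 with column totals to -0.02 with TMM factors. Over all 51281 windows tested DESeq2 called 5607 higher and 1202 lower. When the signal index entered the fit, edgeR called 0 windows of the arm in either direction and 11 higher and 1 lower of the whole table, while 25 (1.46%) were higher and 62 (3.63%) lower at an unadjusted p below 0.05, compared with 3.31% and 3.02% of all windows tested. In that fit the median log2FC of the 81 higher windows was 0.08, with 67 of them still above 0, and that of the 60 lower windows was -0.15, with all 60 below 0. Without *met-2 set-25* replicate 2, edgeR called 44 higher and 5 lower windows. Leaving out a *set-25* library gave 19 to 25 lower windows, and leaving out *set-25* replicate 1 or replicate 2 gave 51 or 52 higher ones. Without *met-2 set-25* replicate 1, 37 windows were lower.

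Higher windows in this comparison included *W08A12.2* (V:3685680-3687379, minus strand), with 2128, 2635 and 2339 normalized counts in the *met-2 set-25* libraries, 2034, 2135 and 1691 in those of *met-2*, 1732, 1657 and 1670 in those of *set-25* and 1970, 1963 and 1734 in those of WT (log2FC over *set-25* 0.49, SE 0.0721, edgeR FDR = 1.82e-06). All its *set-25* libraries lay below all WT libraries, with a log2FC over WT of -0.16 that did not pass the test, and overlapped those of *met-2*. At the window shared by *F53E2.2* and *unc-60* (V:1473586-1475285, plus strand), *met-2 set-25* had 3582, 4392 and 3865 normalized counts, *met-2* 3121, 3470 and 2654, *set-25* 2582, 2887 and 2608 and WT 2909, 3273 and 2640 (log2FC over *set-25* 0.55, SE 0.0926, edgeR FDR = 1.47e-05). Every double mutant library was above every library of the other genotypes, and over WT the log2FC of 0.42 (edgeR FDR = 0.00154) lost its call without WT replicate 1 (0.42), WT replicate 3 (0.35) or *met-2 set-25* replicate 2 (0.34). At *unc-62* (V:4497816-4499515, plus strand), there were 1806, 2203 and 2068 normalized counts in the *met-2 set-25* libraries, 1756, 1738 and 1442 in those of *met-2*, 1461, 1583 and 1529 in those of *set-25* and 1434, 1894 and 1529 in those of WT (log2FC over *set-25* 0.41, SE 0.0696, edgeR FDR = 1.68e-05), with overlap between the double mutant and WT. Over WT its log2FC of 0.32 (edgeR FDR = 0.00176) lost its call without WT replicate 1 (0.24), WT replicate 3 (0.27) or *met-2 set-25* replicate 2 (0.25) and with DESeq2 (0.36).

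Other genes with windows higher than in *set-25* were chosen for mention after their values were seen. They were *lin-40*, a homolog of the MTA subunit of NuRD (log2FC over *set-25* 0.35), *ketn-1*, which encodes the muscle protein kettin (0.21), the sodium-calcium exchanger gene *ncx-2* (0.28) and the small heat shock gene *hsp-16.41* (0.27).

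At the 60 lower windows the median level was 1331 normalized counts in *met-2 set-25*, lower than the 1453 of *met-2*, the 1576 of *set-25* and the 1413 of WT. At *F59B1.2* (V:3630848-3632547, plus strand) there were 1212, 1188 and 1331 normalized counts in the *met-2 set-25* libraries, 1397, 1363 and 1413 in those of *met-2*, 1643, 1588 and 1586 in those of *set-25* and 1424, 1330 and 1392 in those of WT (log2FC over *set-25* -0.37, SE 0.0613, edgeR FDR = 1.21e-05). At *C35A11.4* (V:5392933-5394632, minus strand) there were 1239, 1224 and 1208 normalized counts in the *met-2 set-25* libraries, 1352, 1412 and 1399 in those of *met-2*, 1520, 1527 and 1526 in those of *set-25* and 1304, 1298 and 1339 in those of WT (log2FC over *set-25* -0.32, SE 0.0611, edgeR FDR = 0.000112). No genotype overlapped another at *C35A11.4*, with *set-25* highest and *met-2 set-25* lowest. At the nuclear hormone receptor gene *nhr-222* (V:3543242-3544941, minus strand), there were 1296, 1203 and 1277 normalized counts in the *met-2 set-25* libraries, 1367, 1372 and 1553 in those of *met-2*, 1599, 1453 and 1566 in those of *set-25* and 1423, 1389 and 1314 in those of WT (log2FC over *set-25* -0.29, SE 0.0635, edgeR FDR = 0.000582), a call that was lost without *met-2 set-25* replicate 2 (-0.26, FDR = 0.0107). Over WT, the median log2FC of these 60 windows was -0.10 in the double mutant and 0.14 in *set-25*, and these values share the double mutant and *set-25* libraries that chose the windows.

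By family, 10 chemoreceptor windows (2.64% of 379) were higher than in *set-25*, 9 of *srh-2* and 1 of *srg-26*, compared with 7.64% of all windows tested. Lower counts were found at 15 windows of 12 chemoreceptor genes (3.96%), compared with 3.77% of all windows tested. The 15 hold 12 distinct sets of counts, and 6 of them are in the srj class, where the windows of *srj-18* repeat the same counts. Of the nuclear hormone receptor windows 4 (3.85% of 104) were higher and 5 (4.81%) lower, compared with 7.64% and 3.77% of all windows tested. The median log2FC over *set-25* was -0.10 for chemoreceptors and -0.09 for nuclear hormone receptors, compared with -0.06 for all windows tested, and with TMM factors these medians were -0.06, -0.05 and -0.02. With the signal index as a covariate they were -0.03, -0.01 and -0.0038, the last 2 close to 0. The lower windows also included those of the caenacin genes *cnc-3* and *cnc-11*, which encode antimicrobial peptides, and of the neuropeptide genes *flp-34* and *nlp-13*.

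**Figure D5:**
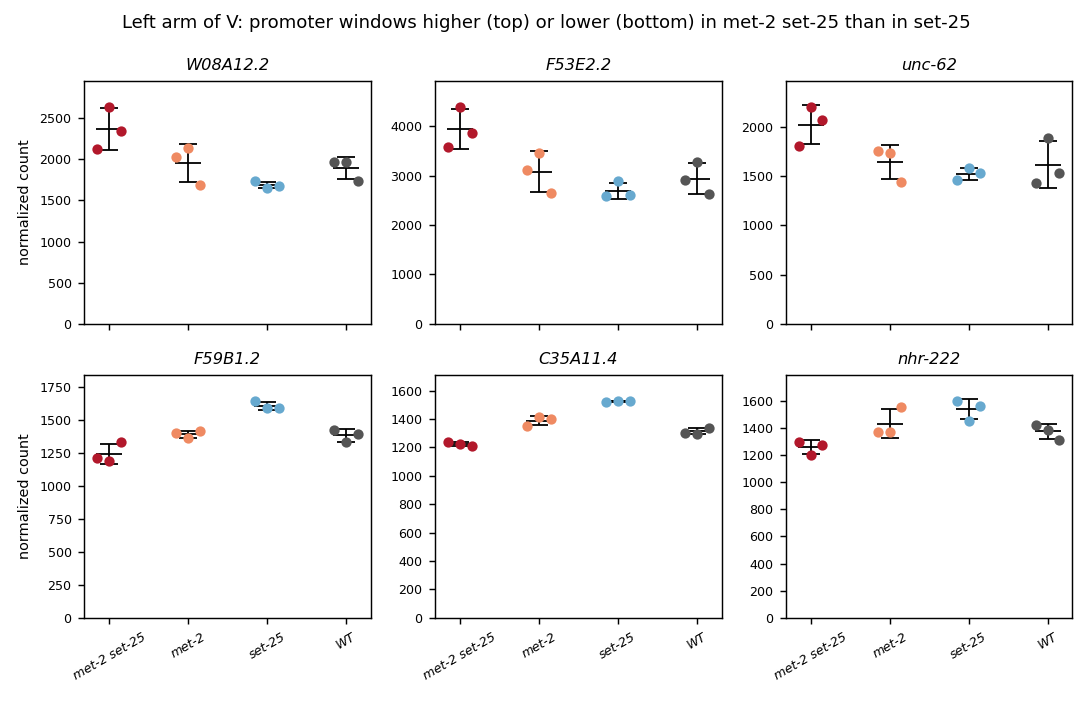
Normalized counts (vertical axes, from 0) in the 12 libraries at the 3 higher (top) and 3 lower (bottom) windows named for the comparison of *met-2 set-25* with *set-25*. Points are libraries, bars the mean and SD of 3 libraries, and genotypes run from *met-2 set-25* at the left to WT at the right. In the bottom row *set-25* has the highest and *met-2 set-25* the lowest mean, and at *C35A11.4* the 4 genotypes do not overlap.

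Loss of SET-25 in animals without MET-2 gave 3 higher windows (0.176%), compared with 0.367% of all windows tested, and 0 lower ones (0.0371% of all windows tested), whereas 112 were higher and 133 lower at an unadjusted p below 0.05, compared with 9.2% and 12.6%. All double mutant libraries lay above all *met-2* libraries at 136 windows and below them at 188 (9.43% and 15.3% of all windows tested). The 3 were *pgph-2* (log2FC over *met-2* 0.31, SE 0.0635, edgeR FDR = 0.00501), *F54E2.1* (0.29, SE 0.0629, edgeR FDR = 0.00813) and *K11D12.13* (0.25, SE 0.0555, edgeR FDR = 0.00813). Their double mutant libraries, given above, lay above all *met-2* libraries. DESeq2 called 38 windows higher and 0 lower, compared with 1327 and 8 of all 51281 windows tested. With edgeR, 10 were higher with TMM factors and 12 with autosomal totals, and a replicate block, described at the end, also gave more higher windows. No share over all windows is given here for these settings, so their counts are no result about the arm. The edgeR count was 0 without *met-2* replicate 3, without *met-2 set-25* replicate 2, without *met-2 set-25* replicate 3 and with the signal index as a covariate. It was 1 without *met-2* replicate 1 or any of the *set-25* libraries, 5 without WT replicate 1, 13 without WT replicate 3, 20 without *met-2* replicate 2 or *met-2 set-25* replicate 1 and 24 without WT replicate 2.

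For the interaction, which asks whether the effect of losing one gene depended on the other, edgeR called 0 windows in either direction (0.105% positive and 0.039% negative among all windows tested), and 95 windows had a positive and 279 a negative interaction at an unadjusted p below 0.05, compared with 9.86% and 13.4%. DESeq2 called 16 positive and 0 negative ones, compared with 831 and 12 of all 51281 windows tested. The median interaction was -0.07 on the arm and -0.05 over all windows tested. A replicate block, described at the end, gave calls in both directions. Without WT replicate 3 edgeR called 12 positive and 8 negative windows, without *met-2* replicate 2 it called 4 and 1, without *met-2 set-25* replicate 1 it called 3 and 1, without *met-2 set-25* replicate 3 it called 2 negative windows and without WT replicate 1 it called 1 positive window.

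The borders of the arm were set by position. The first window inside, of *oac-39* at 251423, had a mean of 1823 normalized counts in *met-2 set-25*, against 1831 in WT, and the last outside, at 246893 and also of *oac-39*, had 1487 in *met-2 set-25*, against 1554 in WT. The last window inside, of *srd-16* at 5899824, had 1275 normalized counts in *met-2 set-25*, against 1369 in WT, and the first beyond it, of *C04E6.5* at 5900616, had 1307 in *met-2 set-25*, against 1427 in WT.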

How the data were processed

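The authors deposited one table of whole-number read counts per promoter window, without normalization. According to the methods and the submitters' processing notes, they trimmed adaptors with cutadapt, aligned reads to ce10 with bowtie2, removed duplicates with Picard, shifted reads for the Tn5 offset and counted them regardless of strand with QuasR. The treatment of reads that map to several places is not given in the sources used here, so counts of near-identical genes are uncertain.

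The test was edgeR's quasi-likelihood F test (version 4.0.16, R 4.3.3, two-sided), in 1 fit of 12 libraries with column totals as library sizes and no filter, for 5 pairwise contrasts and the interaction. All 51281 windows with a count were tested and adjusted together, and an FDR below 0.01 was called. The scripts were tested on simulated data, with changes larger than any called on the arm and placed only in windows at or above the median level. The simulated libraries were given no difference in signal index. That test therefore does not show how well changes of the size called here are found. The signal index left out the 10 autosomal windows with the most counts. Alternatives were DESeq2 1.42.0, TMM factors, autosomal totals, filterByExpr, distinct sets of counts, the genotypes compared only, a replicate block, the signal index as a covariate, an FDR of 0.05, a pseudocount of 1 and each library left out in turn. A signal index without windows of V was chosen after seeing the data. Column totals are sums over windows, not sequencing depth, and the median window held 1481 counts per library.

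The arm and the gene lists were chosen with earlier results of these data known. The rule for named windows took 1 window per locus, namely for *met-2 set-25* over WT the 8 higher and up to 5 lower windows of smallest FDR whose libraries did not overlap, the next 3 in each direction over *set-25* and up to 2 over *met-2*, the 5 highest and 3 lowest levels in WT, and the extremes of each family with at least 10 genes. Other genes were named with their values known. Symbols were matched by transcript identifier, and promoter sequences were not analysed here. Summaries used Python 3.11.15, pandas 2.3.3, numpy 2.4.6 and matplotlib 3.10.9.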

Additional observations from a re-analysis of the deposited data

Results flagged for a closer look

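At 10 of the named windows the effect of losing one methyltransferase differed with the presence of the other at an FDR below 0.05 in edgeR's interaction test, although none passed 0.01. The share of all windows that passed at 0.05 is not given here, and neither are values with the signal index as a covariate. These windows are therefore described one by one and are no result about the arm. The interaction is the log2FC of losing *met-2* without SET-25 minus that with SET-25. Most of these windows were named for a large change in *met-2 set-25*, whose libraries also enter the interaction, so the choice favours large values. It was positive at *F53E2.2* (0.48, FDR = 0.0316), *W08A12.2* (0.44, FDR = 0.0169), the upstream *srh-2* window (0.41, FDR = 0.0474), *K11D12.14* (0.41, FDR = 0.0337), *unc-62* (0.39, FDR = 0.0238), *F54E2.1* (0.36, FDR = 0.023) and *pgph-2* (0.31, FDR = 0.0473). At *F53E2.2*, for example, losing MET-2 changed counts by 0.55 on the log2 scale without SET-25 and by 0.07 with it. The interaction was negative at *C35A11.4* (-0.40, FDR = 0.0122), *F59B1.2* (-0.38, FDR = 0.0161) and *nhr-222* (-0.35, FDR = 0.0261). At *C35A11.4* the corresponding changes were -0.32 without SET-25 and 0.08 with it.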

How the results depend on the processing

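Numbers of called windows on the arm changed with several settings, and the causes were not tested. Numbers over all windows are given above for DESeq2 and, in part, for the signal index. At the other settings the counts have no such share beside them and are no result about the arm. In *met-2 set-25* over WT, 51 higher windows became 0 with either signal index as a covariate and 82 at an FDR of 0.05, and there were 2 lower ones, which repeat the same counts and are 1 among distinct sets of counts, against 1 other with DESeq2, 0 with TMM factors or either index and 16 at an FDR of 0.05. In *met-2* over WT, DESeq2 called 1 higher window. Over *met-2*, 3 higher windows became 38 with DESeq2, 10 with TMM factors, 12 with autosomal totals, 6 with distinct sets of counts, 0 with either index and 48 at an FDR of 0.05, which also gave 2 lower ones. Over *set-25*, 81 higher windows became 0 with either index, and 60 lower ones became 37 with DESeq2, 24 with TMM factors, 35 with autosomal totals, 91 with the genotypes compared only, 0 with either index and 223 at an FDR of 0.05. The interaction had 16 positive windows with DESeq2 and 18 positive and 27 negative ones at an FDR of 0.05. With TMM factors the medians on the arm of the log2 ratio of normalized counts, computed with a pseudocount of 8, were 0.0096 over WT, 0.0024 over *met-2*, -0.030 over *set-25* and -0.028 for the interaction, all higher than with column totals. With the signal index as a covariate, or with the index without V, the log2FC over WT changed sign at *str-221* (0.0069 and 0.0099), *fbxb-72* (-0.078 and -0.085) and *cyp-35A3* (0.019 and 0.021), none of which was called.

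With single libraries left out, the numbers ranged from 7 to 72 higher and 0 to 6 lower windows over WT, 0 to 24 higher over *met-2*, 44 to 93 higher and 5 to 75 lower over *set-25*, and 0 to 12 positive and 0 to 8 negative for the interaction. The median of the same log2 ratio over *set-25* ranged from -0.080 to -0.051.

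A replicate block gave 68 higher and 4 lower windows over WT, 49 higher over *met-2*, 94 lower over *set-25*, and 21 positive and 15 negative for the interaction. All 51 windows higher over WT and all 81 higher over *set-25* in the main fit kept their call with the block. With it *fbxb-72* passed over WT (0.32), while no other named window changed its call. The correlation of deviations from the genotype means averaged 0.0909 for libraries of the same number and -0.0463 for other numbers, only 6 of 18 same-numbered pairs exceeded 0.1, and 7 of 12 libraries were closest to their own number. Same-numbered pairs with a *set-25* library lay between -0.042 and 0.044, so all 6 were pairs without *set-25*. Of the pairs without *set-25*, those of replicate 2 had 0.37 to 0.40 and those of replicate 3 had 0.11 to 0.29. Those of replicate 1 had -0.16 to 0.09, and pairs of different numbers reached 0.32. The main fit used no block, and whether libraries of the same number were handled together was not tested.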
